A study of Rattus norvegicus with 4 samples.

Results

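The interleukin-1 (IL-1) genes described here were Il1a, Il1b, Il18, Il1rn, Il1r1, Il1rap, Casp1 and Nlrp3. They were taken as every gene probe whose gene name in the array files was 1 of these 8 symbols, which gave 13 probes on 31 spots, out of 41012 gene probes on 43379 gene spots with 34235 gene names in all. Expression was measured on single-colour Agilent arrays in rat cortical neurons after knockdown of CMTR1, a nuclear enzyme that adds a methyl group to the sugar of the nucleotide next to the mRNA cap. The shCM1 group held 2 cultures given lentivirus with an shRNA against Cmtr1, and the shCTL group held 2 cultures given lentivirus with a control shRNA. All 4 were primary cultures of cortices of Sprague Dawley embryos of both genders at stage E18.5, grown in neurobasal medium, infected on day 2 in vitro and harvested on day 7. The design gives 2 independent experiments. The sources used here do not give the sequence of the Cmtr1 shRNA. No group was given another Cmtr1 shRNA or had Cmtr1 restored, so that an effect of CMTR1 loss and an off-target effect of the shRNA cannot be told apart.

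IL-1alpha and IL-1beta are cytokines that act through the same receptor, IL-1R1, which signals together with the accessory protein IL-1RAP. IL-1beta and IL-18 are made as inactive precursors and cut by caspase-1, which is activated in inflammasomes such as the one built on the sensor NLRP3, while the IL-1 receptor antagonist occupies the receptor without signalling. In the brain, microglia are a main source of IL-1beta, and neurons and glia carry the receptor.

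Each slide carried 1 array of each group, with replicate 1 of both groups on slide 1 and replicate 2 of both on slide 2. The 75th percentile of the processed signal was 596 and 744 on the shCM1 arrays and 652 and 755 on the shCTL arrays, and no gene spot was saturated. Cmtr1 had log2 levels, relative to that percentile, of -3.46 and -3.53 on the shCM1 arrays and of -1.43 and -1.86 on the shCTL arrays, which left 27.7% of the control signal. Without the slide in the model, limma called 0 of 36696 probes at an adjusted p of 0.05, which is 0% of them, with 1109 probes at an unadjusted p under 0.05. Once the slide was added as a block, it called 1175 probes higher and 986 lower in shCM1, and with the same block but no intensity trend in its variance prior it called 0. Processed signals are given in linear units as the scanner software wrote them. Differences, and whether groups overlapped, refer to log2 levels relative to the 75th percentile of each array. The verbs rose and fell are used below only of probes past the blocked fit, which was the alternative to the planned main fit without a block. The p-values combine the spread of a probe between these 4 cultures with that of other probes. In the blocked fit, which drew 14.8 prior degrees of freedom, p-values and intervals rest largely on other probes of like brightness.

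The probes whose results matter most below are shown with their sequences, first the Il1a probe, which rose, and then those of Casp1 and Nlrp3, whose probes did not count as well above background on any array. A probe counted as such where a share above 0.5 of its kept spots carried that mark. The Il1a probe lies at chr3:116914826-116914885 on the minus strand of rn4, per the array files. The Casp1 probe lies at chr8:2032917-2032976 on the plus strand, and the Nlrp3 probe spans chr10:45873953-45874157 on the plus strand, a stretch longer than the probe itself.
Il1a: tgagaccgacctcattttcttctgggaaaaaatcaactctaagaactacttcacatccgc
Casp1: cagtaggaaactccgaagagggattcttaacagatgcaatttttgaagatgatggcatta
Nlrp3: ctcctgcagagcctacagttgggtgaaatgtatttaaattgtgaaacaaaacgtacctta

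Il1a and Il1b, the genes of both IL-1 ligands, rose in the shCM1 cultures. Il18, Il1rn, Il1r1 and Il1rap did not pass the test, and Casp1 and Nlrp3 were not well above background on any array. Of the 13 probes, 10 probes of 6 genes were tested, each well above background on all 4 arrays. In the blocked fit 3 of these 10 rose, against 3.2% of all tested probes, and 0 fell, against 2.69% of all tested probes. On 7 of the 10 both shCM1 arrays lay above both shCTL arrays, against 21.8% of all tested probes, and on 0 of the 10 both lay below, against 10% of all tested probes. The median difference over the 10 probes was 0.63 on the log2 scale, against 0.08 over all tested probes. The 10 probes were dim, at log2 levels from -6.39 to -2.33, whereas the values over all tested probes count every brightness. Each of the 10 differences was lower with quantile scaling, where the median over all tested probes was 0.007. Il1r1 probe A_44_P379588, for example, went from 0.85 to 0.59. Several of the 10 probes share a gene, and the genes were chosen with earlier results of these arrays known.

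**Figure D1:**
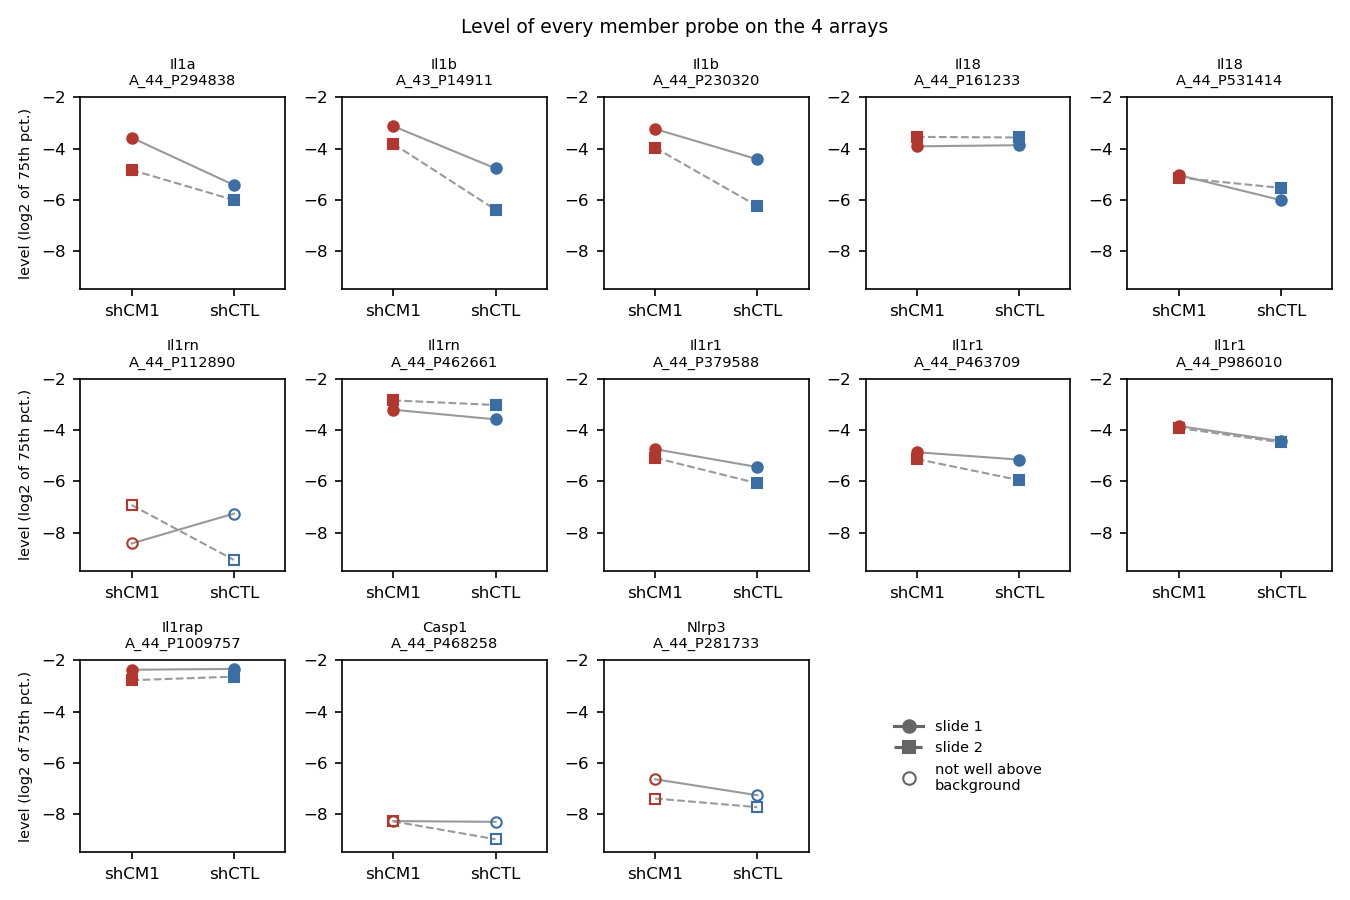
Level of each of the 13 probes, in log2 of the processed signal relative to the 75th percentile of its array, on the shCM1 array and the shCTL array of slide 1 (circles) and slide 2 (squares); open points are not well above background, and lines join the arrays of 1 slide. The lines of Il1a and of both Il1b probes fall towards shCTL on both slides, while those of Il1rap and of the first Il18 probe are nearly flat.

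Il1b, which encodes the secreted ligand IL-1beta, was measured by 2 probes. Probe A_43_P14911, printed 10 times on each array, had a processed signal of 68.3 and 52.9 on the shCM1 arrays, against 23.8 and 8.99 on the shCTL arrays. Both shCM1 arrays lay above both shCTL arrays, and the lowest array was shCTL replicate 2. The log2 difference was 1.65 within slide 1 and 2.58 within slide 2, with a mean of 2.11 (SE 0.59, n = 2 arrays a group), a 4.33-fold higher level. The adjusted p was 1.00 in limma without the block and 8.69e-05 in limma with it, where the 95% interval of the difference ran from 1.60 to 2.63. Its difference was 1.31 without shCTL replicate 2 and 2.92 without shCTL replicate 1, and 0.73 with normexp background correction, an alternative that adds an offset and so compresses dim probes.

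The 10 spots of this probe show the error within an array. On shCM1 replicate 1 the 9 spots kept ranged from 61.1 to 74.5, with a coefficient of variation of 5.67%, and on shCM1 replicate 2 the 8 kept ranged from 50.5 to 57.1, with 4.31%. On shCTL replicate 1 all 10 were kept and ranged from 20.5 to 28.8, with 10.4%, and on shCTL replicate 2 the 9 kept ranged from 6.79 to 10.6, with 14.7%. Of those 9 spots, 7 were marked well above background, so that this control value lay near the limit. On the other arrays all kept spots carried that mark. No shCM1 spot lay within the range of any shCTL array. Spots of 1 array share its RNA and are no replicates of the culture.

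**Figure D2:**
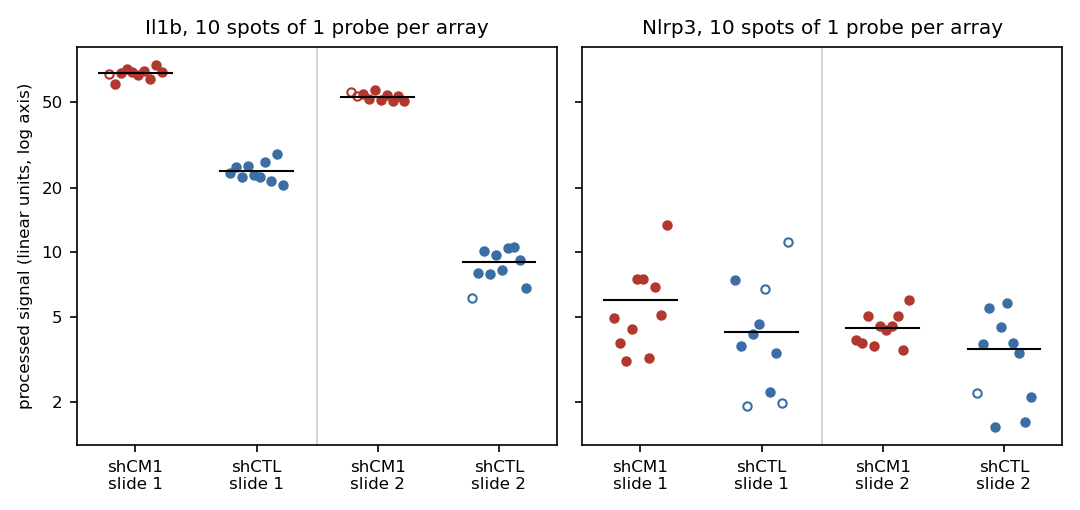
Processed signal, on a log axis, of each of the 10 spots of Il1b probe A_43_P14911 (left) and of the Nlrp3 probe (right) on the 4 arrays; open points carry an outlier mark and were left out, and bars are the means of the rest. All Il1b spots of the shCM1 arrays lie above all those of the shCTL arrays, whereas the Nlrp3 spots of both groups overlap at a few units of signal.

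The other Il1b probe, A_44_P230320, had a processed signal of 63.4 and 47.6 on the shCM1 arrays, against 30.5 and 9.95 on the shCTL arrays. The groups did not overlap, and shCTL replicate 2 was again the lowest array. The log2 difference was 1.18 within slide 1 and 2.28 within slide 2, with a mean of 1.73 (SE 0.65), or 3.32-fold, and limma with the block gave an adjusted p of 6.53e-04. Without shCTL replicate 2 the difference was 0.82, without shCTL replicate 1 it was 2.64, and with normexp it was 0.62. The probes lie at chr3:116964465-116964524 and chr3:116964716-116964775 on the minus strand of rn4, and both differences were larger on slide 2.

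Il1a encodes IL-1alpha, the ligand that is active without cleavage by caspase-1. Its probe had a processed signal of 50.1 and 26.1 on the shCM1 arrays, against 15.2 and 11.7 on the shCTL arrays, with no overlap. The log2 difference was 1.85 within slide 1 and 1.17 within slide 2, so that here the larger one was on slide 1. The mean was 1.51 (SE 0.51), or 2.85-fold, with an adjusted p of 0.00257 in limma with the block and a 95% interval from 0.96 to 2.06. It was 0.88 without shCM1 replicate 1 and 0.44 with normexp. In limma with the block but no intensity trend, Il1a and both Il1b probes had an adjusted p of 0.242. With no filter on dim probes and the block, limma gave 0.0537 for Il1a, 0.0525 for Il1b probe A_44_P230320 and 0.0246 for Il1b probe A_43_P14911.

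Il1a and Il1b are neighbours. In the RefSeq annotation of GRCr8 they lie at chr3:136979804-136990236 and chr3:137030200-137036581, both on the minus strand, with 39963 bases between them. Their promoters are printed because the genes rose together. Each runs from 250 bases before to 50 bases after the annotated start, at chr3:136989968-136990267 for Il1a and chr3:137036532-137036831 for Il1b, in the direction of transcription and as given by RefSeq for GRCr8. Capitals mark matches, on either strand, to 7 searched motifs.
Il1a: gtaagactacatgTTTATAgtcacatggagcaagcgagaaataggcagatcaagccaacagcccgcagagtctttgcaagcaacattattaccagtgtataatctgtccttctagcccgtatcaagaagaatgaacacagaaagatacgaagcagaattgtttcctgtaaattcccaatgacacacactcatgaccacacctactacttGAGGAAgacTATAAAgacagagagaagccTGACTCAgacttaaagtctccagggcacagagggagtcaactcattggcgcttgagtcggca
Il1b: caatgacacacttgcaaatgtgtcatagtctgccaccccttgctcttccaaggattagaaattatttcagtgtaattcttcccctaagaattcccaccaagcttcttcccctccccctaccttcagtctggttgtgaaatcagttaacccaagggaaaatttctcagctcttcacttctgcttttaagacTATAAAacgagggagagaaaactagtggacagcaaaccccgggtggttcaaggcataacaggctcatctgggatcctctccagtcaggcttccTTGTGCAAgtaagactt

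The motifs were the TATA box (TATAAA), AP-1 (TGANTCA), PU.1 (GAGGAA), C/EBP (TTGCNNAA), CRE (TGACGTCA), kappa B and the interferon response motif. In the Il1a window, TATAAA began 32 bases before the start, GAGGAA 41 bases before it and TGACTCA 12 bases before it, and none of them overlapped. A further TATA match lay on the other strand 237 bases before the start. In the Il1b window, TATAAA began 60 bases before the start and a C/EBP match lay on the other strand after the start. Of 33469 rat promoter windows of this length, 14.2% held the TATA motif, 7.33% AP-1, 27.6% PU.1 and 10.6% C/EBP. The kappa B motif, held by 5.37% of windows, matched in those of Il1rn and Il1r1 and in neither ligand's window. A match describes letters and is not a bound site. Only these letters within these windows were searched, so other forms of a motif and sites further out were not examined.

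Il18, the ligand cut by caspase-1 like IL-1beta, gave different values on its 2 probes. Probe A_44_P161233 had a processed signal of 39.6 and 63.8 on the shCM1 arrays, against 44.7 and 63.7 on the shCTL arrays. These overlapped, with a log2 difference of -0.01 (SE 0.25), an adjusted p of 0.979 in limma with the block and a 95% interval from -0.37 to 0.35. Probe A_44_P531414 had 18.2 and 21.2 on the shCM1 arrays, against 10.1 and 16.3 on the shCTL arrays, which did not overlap. Its log2 difference was 0.98 within slide 1 and 0.40 within slide 2, with a mean of 0.69 (SE 0.35), and it did not pass in limma with the block (adjusted p = 0.181). The probes are 15511 bases apart on chromosome 8 in rn4, and which of them follows the main transcript of these cultures was not tested.

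Il1rn encodes the receptor antagonist. Probe A_44_P462661 had a processed signal of 64.7 and 104 on the shCM1 arrays, against 54.5 and 93.1 on the shCTL arrays. The groups overlapped, since each slide 2 array was above each slide 1 array. The log2 difference was 0.38 within slide 1 and 0.18 within slide 2, with a mean of 0.28 (SE 0.28), an adjusted p of 0.292 in limma with the block and a 95% interval from -0.04 to 0.60. The difference was -0.0032 without shCTL replicate 1, 0.56 without shCTL replicate 2, 0.10 without shCM1 replicate 2 and 0.46 without shCM1 replicate 1. The other Il1rn probe, A_44_P112890, was not well above background on any of the 4 arrays, at 1.73 and 6.11 in shCM1 and 4.25 and 1.40 in shCTL, and no difference is given for it.

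Il1r1, the signalling receptor, had 3 probes. Probe A_44_P379588 had a processed signal of 22.3 and 21.9 on the shCM1 arrays, against 15.0 and 11.2 on the shCTL arrays. Probe A_44_P986010 had 41.7 and 49.3 on the shCM1 arrays, against 30.3 and 33.9 on the shCTL arrays. Probe A_44_P463709 had 20.5 and 21.2 on the shCM1 arrays, against 18.3 and 12.2 on the shCTL arrays. On each of them both shCM1 arrays lay above both shCTL arrays, by mean log2 differences of 0.85 (SE 0.38), 0.58 (SE 0.23) and 0.56 (SE 0.40) in the order given. Without shCTL replicate 2 the differences were 0.53, 0.55 and 0.16, without shCTL replicate 1 they were 1.16, 0.60 and 0.96, and with normexp 0.21, 0.24 and 0.12. The slide 1 difference of A_44_P463709 was 0.29, but -0.01 with quantile scaling and in the authors' table. None passed: limma with the block gave adjusted p-values of 0.0865, 0.0868 and 0.253. Il1rap, the accessory chain, had 116 and 109 on the shCM1 arrays, against 129 and 122 on the shCTL arrays, and relative to the 75th percentile the groups overlapped. Its log2 difference was -0.09 (SE 0.23), with an adjusted p of 0.747 in limma with the block and a 95% interval from -0.37 to 0.20.

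**Figure D3:**
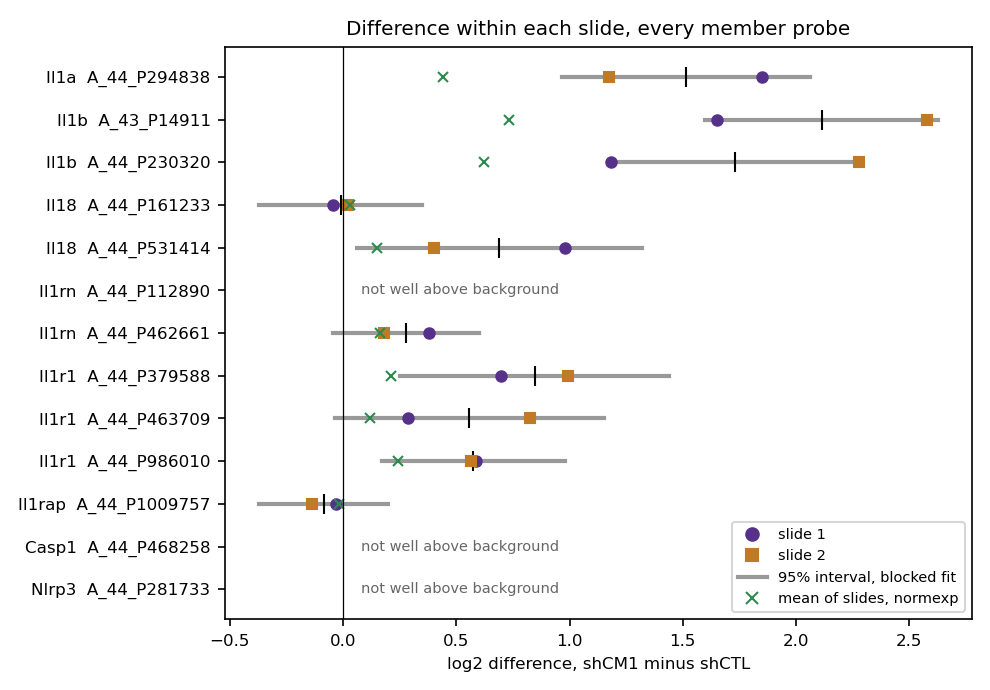
Log2 difference, shCM1 minus shCTL, of each tested probe within slide 1 (circles) and slide 2 (squares), with the mean (bar), its 95% interval from the blocked limma fit (line) and the mean under normexp (cross). The intervals of Il1a and both Il1b probes start above 0.9, and the normexp values of these probes lie nearer to 0 than their means. No difference is drawn for the 3 probes not well above background.

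Casp1 encodes the protease that cuts the IL-1beta and IL-18 precursors, and Nlrp3 the sensor of its best known inflammasome. Casp1 had a processed signal of 1.92 and 2.38 on the shCM1 arrays, against 2.06 and 1.49 on the shCTL arrays. Nlrp3, printed 10 times, had 5.97 and 4.42 on the shCM1 arrays, against 4.24 and 3.55 on the shCTL arrays. Of the kept Nlrp3 spots, 1 of 10 on shCM1 replicate 1, at 13.4, was marked well above background, and 0 on the other arrays. Neither probe was well above background on any array, so no fold is given, and a change at levels under this limit was not detectable.

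Among all 36696 tested probes, ranked from the most positive mean difference down, Il1b probe A_43_P14911 was at rank 9, Il1b probe A_44_P230320 at rank 22 and Il1a at rank 53. The differences within the slides correlated at 0.367 over all tested probes, a description over probes that share the 4 arrays.

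**Figure D4:**
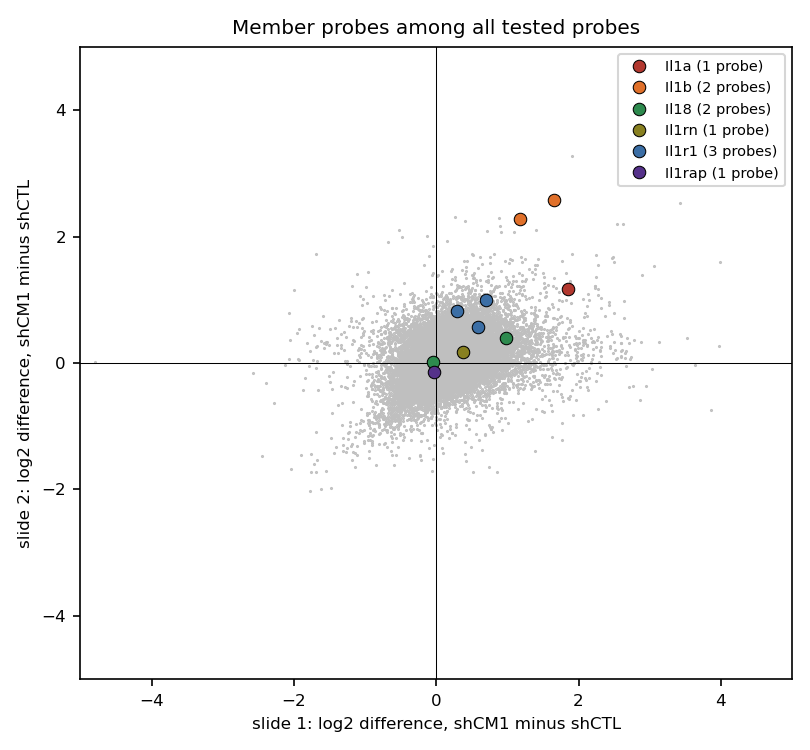
Log2 difference, shCM1 minus shCTL, within slide 1 (horizontal) and slide 2 (vertical) for all 36696 tested probes (grey) and the 10 tested IL-1 probes (coloured by gene). Il1a and both Il1b probes lie at 1.17 or more on both axes, and the first Il18 probe and Il1rap lie near 0.

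Other genes of the same pathways were measured beside these 8. In these lists and in the marker lists below, each gene was read by its brightest tested probe, whereas the shares count every tested probe. Many of the listed genes were dim, whereas the shares and the median over all tested probes count every brightness. With quantile scaling the median over all tested probes was 0.007, and differences were 0.43 for Il1r2, 0.28 for Aim2 and -0.21 for Panx1. The lists were not compared with probes of like brightness. Of 15 other IL-1 family genes 10 were tested, of which 2 rose and 0 fell, against 3.2% and 2.69% of all tested probes, with a median log2 difference of 0.48, against 0.08 over all tested probes. Il33, an alarmin held in the nucleus, had log2 levels of -0.93 and -0.02 on the shCM1 arrays, against -1.73 and -0.59 on the shCTL arrays. It was higher on both slides, by 0.69 (SE 0.47 without the block, adjusted p = 0.00215 in limma with the block). It was called in 8 of 9 blocked settings, although the groups overlapped, while its other probe, at 0.37, did not pass. The Il33 difference was 0.12 without shCTL replicate 1, 1.25 without shCTL replicate 2, 1.14 without shCM1 replicate 1 and 0.23 without shCM1 replicate 2. Il1r2, a decoy receptor that binds IL-1 without signalling, was higher by 0.59 (SE 0.22, adjusted p = 0.0410 in limma with the block), a call that held in 3 of 9 blocked settings, and its difference was 0.34 with normexp.

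Of 16 genes of IL-1 receptor signalling 15 were tested. Of these 0 rose and 1 fell, against 3.2% and 2.69% of all tested probes, and a count of 1 is too small to compare with a share. The median was 0.05, against 0.08 over all tested probes. Tollip is an adaptor that restrains signalling by this receptor in studies of other cells. It fell by 0.42 on the log2 scale (SE 0.17 without the block, adjusted p = 0.00984 in limma with the block). It passed in 6 of 9 blocked settings, its difference was -0.27 without shCM1 replicate 2, and its other probe, at -0.06, did not pass. Of 20 other inflammasome genes 18 were tested and 0 rose or fell, against 3.2% and 2.69% of all tested probes, with a median of 0.24 against 0.08. Those with the smallest p were Panx1, a membrane channel, and Aim2, a sensor of DNA. Panx1 was at -0.28 (SE 0.24 without the block, adjusted p = 0.0762 in limma with the block). Aim2 was at 0.45 (SE 0.31 without the block, adjusted p = 0.0996 in limma with the block). Leaving out 1 array in turn gave differences from -0.54 to -0.02 for Panx1 and from 0.16 to 0.73 for Aim2.

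Microglial markers were higher in the same arrays. Of 19 listed, 18 were tested, 8 rose and 0 fell, against 3.2% and 2.69% of all tested probes, with a median log2 difference of 0.68 against 0.08. Many of these markers were dim, and here too the values over all tested probes count every brightness. Of the 18, 17 were higher within both slides, against 44.2% of all tested probes. Their signals, each divided by the 75th percentile, summed to 16.8 and 15.5 on the shCM1 arrays and to 13.2 and 13.4 on the shCTL arrays. Of the 7 defining markers, Aif1 was higher by 1.30, Tyrobp by 0.97 and Trem2 by 0.73, all past limma with the block. Cx3cr1 at 0.97, P2ry12 at 0.49 and Csf1r at 0.37 did not pass, and Itgam was not well above background on any array. Aif1 was higher by 1.55 within slide 1 and 1.06 within slide 2, and the median of the 18 markers was 0.77 and 0.48. Il1a was at 1.85 and 1.17. The Il1b probes were larger on slide 2 instead, at 1.65 and 2.58 for A_43_P14911 and at 1.18 and 2.28 for A_44_P230320. The part of these markers in the Il1a and Il1b differences was not tested, and in bulk cultures more cells of a type and more RNA per cell cannot be told apart.

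Markers of neurons, the labelled cell type, summed to 260 and 192 on the shCM1 arrays and to 280 and 213 on the shCTL arrays, and of 10 tested 1 rose and 1 fell. Of 7 astrocyte markers 0 rose and 0 fell. Of the other lists, 2 of 7 oligodendrocyte, 2 of 5 fibroblast, 1 of 7 endothelial, 0 of 5 neutrophil and 0 of 4 tested lymphocyte markers rose, and 0 fell in any of them, against 3.2% and 2.69% of all tested probes.

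**Figure D5:**
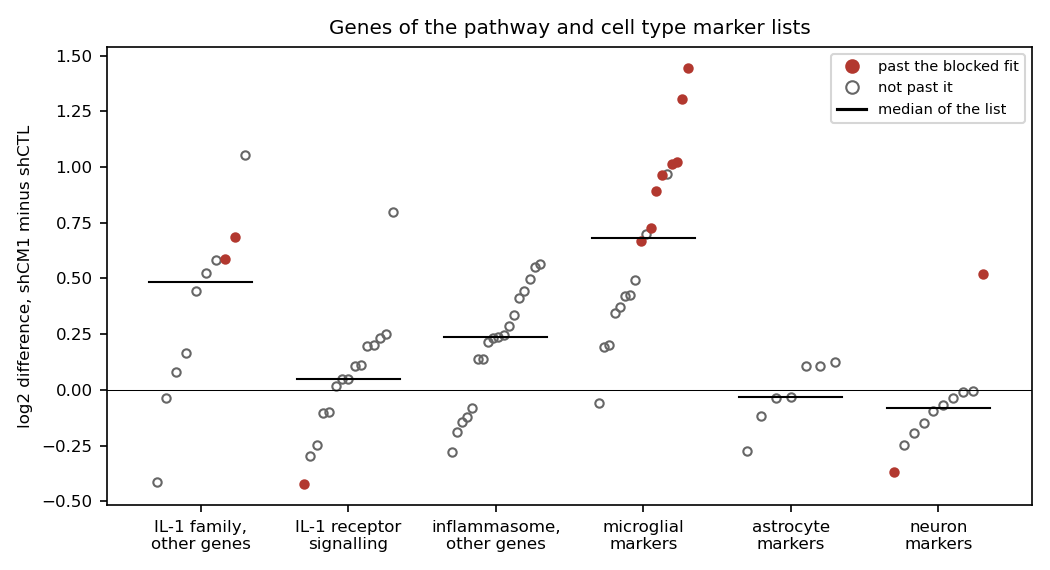
Log2 difference, shCM1 minus shCTL, of each tested gene of the pathway lists without the 8 IL-1 genes and of the microglial, astrocyte and neuron marker lists; filled points passed the blocked limma fit, open points did not, and bars are medians. The microglial median is 0.68, against 0.48 for the other IL-1 family genes, 0.24 for the inflammasome and 0.05 for receptor signalling.

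Of the 8 genes, by the brightest probe of each, Il1b and Il1a had the widest ranges of level over the arrays. Of 15442 named genes, those nearest to Il1b by the root mean square difference of centred log2 levels over the 4 arrays were Dmrt2, Ccr6, P2rx5, Clec4a1 and Lcn9, at 0.25 to 0.33. Those nearest to Il1a were Tnfrsf13b, Magec2, Aif1, Vsig10 and Ngp, at 0.12 to 0.24. Aif1, a microglial marker, was well above background on all 4 arrays, at a distance of 0.14. The other 9 were so on 2 or 3 arrays, so that their distances rest in part on levels not well above background and no order is read from them.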

How the data were processed

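The deposited scanner files hold spot intensity on a linear scale which, per the file headers, Agilent Feature Extraction 10.7.3.1 wrote; the processed signal used was already background-corrected by that software. The deposited flags for outliers and for signal well above background are scores of another kind, per the file headers, and 86 to 98 gene spots an array were left out as outliers. The authors' value table, also linear intensity as deposited, was an alternative only; the sources used here do not say how it was made. The mean of a probe's spots was converted to log2 and expressed relative to the 75th percentile of its array. A probe was tested if well above background on at least 2 of 4 arrays (36696 of 41012). Probes were named through a RefSeq table of GRCr8, 20285 by accession, 2356 by symbol and 165 by older symbol, and 18206 kept the name in the files. Groups followed the shRNA label; sample titles write si where the design writes sh.

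The group difference was fitted in limma 3.58.1 under R 4.3.3 (two-sided, intensity trend, Benjamini-Hochberg over all tested probes), without and with the slide as a block. Standard errors are from the fit without it. Same-numbered arrays share a slide per the file headers, and their deviations from the group means correlated at 0.713; the labels do not say whether a slide is 1 experiment. The blocked fit drew 14.8 prior degrees of freedom, and its p leans largely on probes of like brightness. An exact permutation test of 2 against 2 cannot go below 0.33. Precision is limited by the number of arrays. The fit was tested on simulated data. The members and lists were chosen with earlier results of these data known. The rule for named genes took all 8 members, Cmtr1, list genes past the blocked fit or otherwise the 2 with the smallest p, and the 5 nearest genes by level for the 2 members of widest range. Alternatives were other scalings, normexp with an offset of 50, other filters, no intensity trend, the brightest probe of each gene and leaving out each array.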

Additional observations from a re-analysis of the deposited data

How the results depend on the processing

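Without the block, limma called 0 probes under every alternative, including leaving out each array in turn (0 to 0), with 695 to 1462 probes at an unadjusted p under 0.05 in those. With the slide as a replicate block it called 2161 probes (1175 higher and 986 lower). Under that block the count was 1352 with quantile scaling (545 higher and 807 lower), 971 with cyclic loess (369 and 602), 1421 with normexp (635 and 786), 1113 with the authors' table (431 and 682), 1932 with the brightest probe of each gene, 2129 with only probes well above background on all 4 arrays, 354 with no filter and 0 with no intensity trend, where 6289 probes had an unadjusted p under 0.05. The last filters with the block were chosen after seeing the data. Il1b probe A_43_P14911 passed in all blocked settings that fitted it but that without the trend, while Il1a and the other Il1b probe also missed the threshold without a filter. Leaving out 1 array gave log2 differences from 1.31 to 2.92 and from 0.82 to 2.64 for the Il1b probes and from 0.88 to 2.14 for Il1a, with no change of sign. Of the called probes, those of Il1a, Il1b, Il33, Il1r2, Tollip and Cmtr1 were followed under each alternative that fitted them, and none of their differences changed sign. Differences of probes not well above background on any array, such as those of Casp1 and Nlrp3, could not be measured.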
